A study of Arabidopsis thaliana with 24 samples.

Results

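The genes described here are the aquaporins of Arabidopsis thaliana, the membrane channels that carry water and small uncharged solutes. All 35 genes named as plasma membrane intrinsic proteins (PIP), tonoplast intrinsic proteins (TIP), NOD26-like intrinsic proteins (NIP), or small basic intrinsic proteins (SIP) were taken by their gene identifiers from the 37813 genes of the count table. Of the 35, 28 reached at least 5 reads in at least 6 of the 24 libraries and were tested among 20094 protein-coding genes. These were all 5 PIP1 genes, all 8 PIP2 genes, 5 of 10 TIP genes, 7 of 9 NIP genes, and all 3 SIP genes. Gene names are written with a hyphen, as in UniProt (PIP2-3), in place of the semicolon also in use. Transcripts were counted by RNA-Seq in entire rosettes from wild-type plants (Col-0 gl1) and from the mutants phot1, phot2, and phot1phot2, which lack phototropin 1, phototropin 2, or both. Each genotype was sampled without treatment and 30 min after a UV-C dose of 100 mJ cm-2, with 3 biological replicates of at least 4 rosettes in each of the 8 groups. All genotypes, the wild type included, carry the glabrous1 mutation and so lack trichomes, and all were grown under an 8 h photoperiod; the labels give an age of 4 weeks where the methods of the study give 3 weeks, and the mutant alleles are not given in the sources used here.

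Aquaporins sit in the membrane as tetramers in which every subunit has its own pore. PIPs lie mainly in the plasma membrane, where PIP2 proteins form active water channels and many PIP1 proteins need a PIP2 partner to reach the cell surface. TIPs lie mainly in the vacuolar membrane, several NIPs carry boric acid or metalloids, and SIPs are found in the endoplasmic reticulum. In leaves, PIPs of the vein and bundle sheath set much of the hydraulic conductivity of the rosette, and some isoforms also carry hydrogen peroxide or carbon dioxide. Phototropins are receptor kinases for blue light that act in phototropism, chloroplast positioning, and stomatal opening.

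PIP2-2 (AT2G37170) and PIP2-3 (AT2G37180) lie next to each other on chromosome 2 in opposite orientation, at chr2:15613368-15615022 on the minus strand and chr2:15617635-15619155 on the plus strand. They are shown first because theirs were the largest PIP log2 fold changes after UV-C in phot2 and phot1phot2 and because their counts depend on telling them apart. Their coding sequences of 858 bases were identical at 94.8% of positions. This was the closest pair among tested aquaporins, compared only within PIPs, TIPs, NIPs, or SIPs. The start codon with the bases that follow it, 120 in all, is given for each gene. The 12 bases that differ between them are in capitals.
PIP2-2: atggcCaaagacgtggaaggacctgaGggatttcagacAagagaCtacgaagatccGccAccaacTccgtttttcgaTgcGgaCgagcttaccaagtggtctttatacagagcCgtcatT
PIP2-3: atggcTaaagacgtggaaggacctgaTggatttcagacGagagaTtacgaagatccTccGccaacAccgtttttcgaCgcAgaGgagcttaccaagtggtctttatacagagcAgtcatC
Differences of this kind recur along both genes. Of all stretches of 76 bases, the number of sequencing cycles, 91.2% in PIP2-2 exons and 90% in PIP2-3 exons occurred nowhere else in the genome. Reads that match several places were not counted, and how many reads of either gene this removed was not measured. All 76-base stretches were unique for the other tested aquaporins, except in NIP2-1 (95.4%) and NIP3-1 (97.7%).

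Promoters are shown for the 7 called genes whose UV-C response differed most between phot1phot2 and the wild type, with PIP1-1, PIP2-2, PIP2-3, TIP1-1, and TIP2-2 higher and TIP2-1 and PIP2-7 lower. Each runs from 250 bases before to 50 bases after the start of the gene, read 5′ to 3′ from the RefSeq TAIR10.1 genome, in which all 35 genes have the same positions as in the count table. Capitals mark exact matches, on either strand, to any of 10 short motifs. The TATA box (TATAAA), the W-box core TTGACT bound by WRKY factors, the I-box (GATAAG), the site II element (TGGGCC), the auxin response element core (TGTCTC), the core of the abscisic acid response element (ACGTG), and the dehydration response element core (CCGAC) occurred here, whereas TTGACC, the evening element (AAATATCT), and CGCGT did not.
PIP1-1, chr3:22732993-22733292, plus strand: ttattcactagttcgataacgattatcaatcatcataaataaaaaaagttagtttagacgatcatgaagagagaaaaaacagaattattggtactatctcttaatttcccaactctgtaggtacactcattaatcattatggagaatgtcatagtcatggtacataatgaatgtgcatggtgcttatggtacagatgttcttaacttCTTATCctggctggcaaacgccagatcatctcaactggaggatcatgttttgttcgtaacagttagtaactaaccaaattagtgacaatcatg
PIP2-2, chr2:15614973-15615272, minus strand: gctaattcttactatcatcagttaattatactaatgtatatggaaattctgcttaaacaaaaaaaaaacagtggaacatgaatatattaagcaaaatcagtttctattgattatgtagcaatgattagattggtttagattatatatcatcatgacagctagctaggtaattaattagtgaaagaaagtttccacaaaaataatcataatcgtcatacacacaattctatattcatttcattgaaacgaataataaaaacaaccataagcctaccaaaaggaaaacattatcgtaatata
PIP2-3, chr2:15617385-15617684, plus strand: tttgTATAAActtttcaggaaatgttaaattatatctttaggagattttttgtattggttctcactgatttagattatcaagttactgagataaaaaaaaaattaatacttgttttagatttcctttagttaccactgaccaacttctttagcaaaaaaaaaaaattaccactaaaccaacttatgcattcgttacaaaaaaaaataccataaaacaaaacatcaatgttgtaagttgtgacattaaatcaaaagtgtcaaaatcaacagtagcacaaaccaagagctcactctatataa
TIP1-1, chr2:15445044-15445343, plus strand: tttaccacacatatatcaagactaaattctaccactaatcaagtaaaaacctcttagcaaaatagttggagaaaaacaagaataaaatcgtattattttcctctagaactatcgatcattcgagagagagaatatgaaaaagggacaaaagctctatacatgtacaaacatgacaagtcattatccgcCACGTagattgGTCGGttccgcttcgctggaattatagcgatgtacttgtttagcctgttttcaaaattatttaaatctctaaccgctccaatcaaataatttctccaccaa
TIP2-2, chr4:9698690-9698989, plus strand: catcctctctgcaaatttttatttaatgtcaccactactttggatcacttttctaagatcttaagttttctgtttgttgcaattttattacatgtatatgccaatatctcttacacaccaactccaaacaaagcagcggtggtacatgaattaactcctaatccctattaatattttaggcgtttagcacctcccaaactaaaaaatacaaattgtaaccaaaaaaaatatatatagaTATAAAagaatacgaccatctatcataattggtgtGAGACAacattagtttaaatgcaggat
TIP2-1, chr3:5505110-5505409, plus strand: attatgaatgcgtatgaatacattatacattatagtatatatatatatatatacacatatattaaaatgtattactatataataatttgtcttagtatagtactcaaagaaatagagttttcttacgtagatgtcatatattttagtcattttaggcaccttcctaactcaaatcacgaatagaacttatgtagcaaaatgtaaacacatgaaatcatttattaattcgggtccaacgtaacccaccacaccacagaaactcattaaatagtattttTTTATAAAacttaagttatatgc
PIP2-7, chr4:16708111-16708410, plus strand: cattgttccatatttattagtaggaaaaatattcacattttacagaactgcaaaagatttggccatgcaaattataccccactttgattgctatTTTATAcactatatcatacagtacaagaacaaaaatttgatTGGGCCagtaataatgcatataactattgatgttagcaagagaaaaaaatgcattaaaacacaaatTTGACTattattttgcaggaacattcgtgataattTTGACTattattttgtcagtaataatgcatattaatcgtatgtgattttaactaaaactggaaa
No motif searched was shared by all 5 genes with higher responses, TATAAA was in PIP2-3 and TIP2-2, and PIP2-2 had none of the 10. PIP2-7 had TTGACT in 2 places, starting 49 and 14 bases before the gene start, a TATA box, and a site II element. Among the 28 tested aquaporins TTGACT occurred in 8 promoters (28.6%), against 21.9% of 20093 promoters of tested genes, and TATAAA in 13 (46.4%), against 51.5%. GATAAG occurred in 14.8% of all promoters, TGGGCC in 18.6%, TGTCTC in 13.7%, ACGTG in 27.6%, CCGAC in 16.1%, TTGACC in 14.4%, AAATATCT in 5.96%, and CGCGT in 9.69%. The TATAAA matches of TIP2-1 lie after the gene start and overlap each other on opposite strands.

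Libraries of non-treated plants held 33200727 to 41902444 counted reads and those after UV-C 20897905 to 28723145, so depth moved with treatment. Reads of tested genes numbered 32985843 to 41619459 without treatment and 18632056 to 26531154 after UV-C. The part of counted reads outside tested genes was thus also larger after UV-C, and the reason was not tested. Levels are counts per 1000000 reads of tested genes (CPM), scaled by trimmed mean of M-values (TMM). Scaling factors were 1.017 to 1.1 without treatment, 0.9317 to 1.02 after UV-C in the wild type and single mutants, and 0.8687 to 0.8872 after UV-C in phot1phot2. PHOT1 was lower in phot1 than in the wild type without treatment (121 against 308 CPM) and PHOT2 was lower in phot2 (263 against 431 CPM), with no overlap between libraries, and both were lower in phot1phot2 (125 and 265 CPM), so the labels held. The summed level of 5 mesophyll markers was 48870 to 59480 CPM without treatment and 67720 to 97320 CPM after UV-C, highest in phot1phot2. One of the 5, the light-harvesting gene LHCB1.3, rose in every genotype (a mean of 19020 to 41130 CPM in the wild type), whereas RBCS1A fell in the wild type, phot1, and phot2. The summed level of 5 guard cell markers was 76.01 to 113 CPM without treatment and 48.6 to 64.2 CPM after UV-C. That of 3 phloem and bundle sheath markers was 199 to 290 CPM without treatment and 264 to 426 CPM after UV-C. Of 5 root markers, PYK10 had group means of 302 to 483 CPM and the rest of at most 0.423 CPM. Only 2 of them, PYK10 and MYB36, were tested. Both rose after UV-C in phot2, and neither was called after UV-C in the other genotypes. PYK10 was also higher in phot1phot2 than in the wild type after UV-C. The 5 seed and 2 pollen markers summed to at most 0.937 and 0.108 CPM in any library. The part of these markers in the results was not tested, and in whole rosettes a change in the number of cells of a type cannot be told apart from a change in RNA per cell. Replicates of a group are separate samples of pooled rosettes, and p-values rest on the spread between replicates, estimated over all 8 groups together.

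In non-treated wild type, the 35 aquaporins took 5164 ± 140 CPM (SD, n = 3) in all, that is, 0.516% of the TMM-scaled library size. PIPs contributed 3123 ± 19.7 CPM, TIPs 1954 ± 139 CPM, SIPs 54.3 ± 2.30 CPM, and NIPs 32.2 ± 2.92 CPM. Divided by exon length, TIP1-2 was the most abundant at 776 ± 52.7 CPM per kb, before PIP1-2, a PIP of the leaf veins and mesophyll, at 659 ± 29.5 CPM per kb and TIP2-1, the shoot delta-TIP, at 533 ± 70.7 CPM per kb. PIP2-1 (304 ± 15.3 CPM per kb) and PIP2-7 (281 ± 20.2 CPM per kb) followed with overlapping libraries. TIP1-1, PIP1-3, PIP1-4, PIP1-5, PIP1-1, and PIP2-6 lay between 214 and 85.1 CPM per kb, PIP2-2 at 49.9 ± 6.19 CPM per kb, and TIP2-2 at 40.4 ± 5.03 CPM per kb. PIP2-3 stood at 12.2 ± 2.26 CPM per kb, a level its libraries shared with SIP2-1. Neighbours in this order whose libraries overlapped further included PIP1-4 with PIP1-5, PIP1-1 with PIP2-6, and PIP2-2 with TIP2-2. NIP6-1 at 9.80 ± 1.78 CPM per kb was the most abundant NIP, and NIP7-1, PIP2-4, NIP1-1, NIP3-1, NIP2-1, and TIP2-3 were each under 1 CPM per kb.

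The 7 aquaporins below the limit are known mainly from seeds (TIP3-1, TIP3-2), pollen (TIP1-3, TIP5-1, NIP4-1, NIP4-2), and roots (TIP4-1). TIP1-3 and NIP4-1 had 0 reads in all 24 libraries, where a count of 0 allows up to 3 reads per library. NIP4-2 had 4 reads in all, TIP3-2 had 7, TIP5-1 had 9, TIP3-1 had 11, and TIP4-1 had 68, with no more than 7 in any library. These genes enter no comparison.

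To ask how UV-C alters aquaporin transcripts in each genotype, libraries taken after UV-C were compared with the non-treated libraries of the same genotype with edgeR's quasi-likelihood test. Genes with a Benjamini-Hochberg adjusted p under 0.01 over all 20094 genes were called. No fold limit was set, whereas the study also required an absolute log2 fold change over 1. In the wild type 11 of the 28 aquaporins rose and 1 fell, while 18% of all tested genes rose and 19.2% fell. In phot1, 10 rose and 1 fell (17.1% and 18.1% of all genes). In phot2, 12 rose and 1 fell (19.6% and 20.2%). In phot1phot2, 12 rose and 5 fell (21.4% and 21.6%). With only the 2 groups compared in each fit, 11 rose and 0 fell in the wild type and 10 and 1 in phot1. In phot2 these numbers were 12 and 3, and in phot1phot2 12 and 1, so most falls in phot1phot2 depended on the fit. The median log2 fold change of the 28 aquaporins was 0.27 for wild-type plants, 0.09 for phot1, 0.39 for phot2, and 0.60 for phot1phot2, against medians over all genes between −0.003 and 0.009. The members that rose were mostly PIPs: 9 of 13 PIPs in wild-type plants and 8, 7, and 8 of them in the phot1, phot2, and double mutants.

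**Figure D1:**
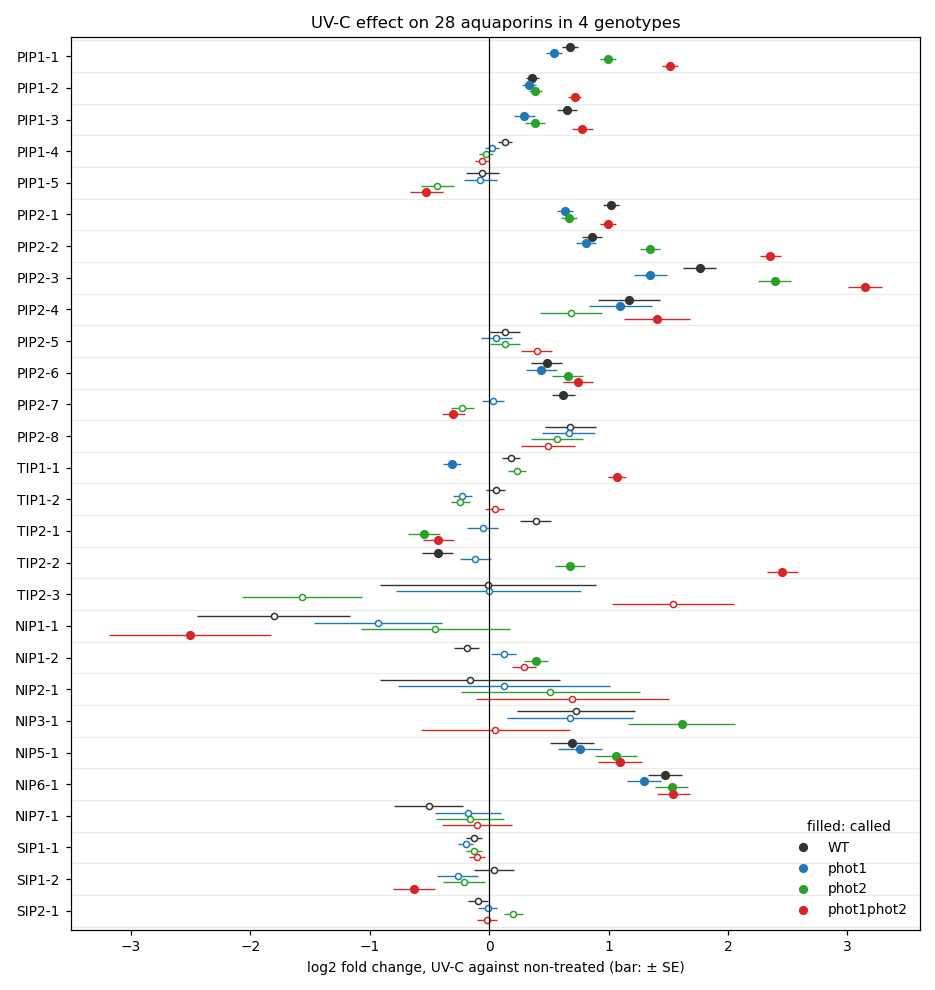
Log2 fold change (x axis) of each of the 28 tested aquaporins (y axis) from non-treated plants to 30 min after UV-C, in the wild type (WT) and 3 mutants, from edgeR; bars are ± SE and filled points passed the test. PIP2-3 lies at 1.76, 1.35, 2.39, and 3.15 in the wild type, phot1, phot2, and phot1phot2, and TIP2-2 spreads from −0.43 in the wild type to 2.46 in phot1phot2.

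Of the PIP2 water channels, PIP2-3, known as RD28 for its response to desiccation, had the largest rise in each genotype among members called. In the wild type it stood at 14.3, 12.5, and 17.9 CPM without treatment and 49.2, 42.9, and 60.1 CPM after UV-C, a fold change of 3.40 (log2 1.76 ± 0.14 SE, adjusted p = 9.39e-10). In phot1 it went from 17.6, 18.0, and 21.9 CPM to 48.8, 45.8, and 51.4 CPM (log2 1.35 ± 0.14, adjusted p = 5.47e-08). After UV-C the phot1 libraries lay within the range of the wild type. In phot2 it went from 20.9, 21.5, and 24.2 CPM to 110, 108, and 131 CPM (log2 2.39 ± 0.14, adjusted p = 6.15e-12). In phot1phot2 it went from 25.7, 20.4, and 24.1 CPM to 217, 230, and 175 CPM (log2 3.15 ± 0.14, adjusted p = 1.10e-13). No library after UV-C overlapped a non-treated library of its genotype, and among libraries after UV-C all of phot1phot2 lay above all of phot2, which lay above the rest. The part of PIP2-3 in the PIP2 level per length was 1.65% ± 0.31 in non-treated wild type and 7.85% ± 0.70 in phot1phot2 after UV-C.

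Its neighbour PIP2-2, a water channel known best from root water uptake, followed the same order at a higher level. It stood at 66.5, 59.1, and 75.7 CPM in non-treated wild type and at 118, 122.7, and 125 CPM after UV-C (log2 0.86 ± 0.08 SE, adjusted p = 2.71e-08). In phot1phot2 it went from 81.9, 76.2, and 82.9 CPM to 434, 429, and 372 CPM (log2 2.36 ± 0.09, adjusted p = 9.32e-15). The rise was 1.75-fold in phot1 and 2.54-fold in phot2, against 1.82-fold in the wild type and 5.12-fold in phot1phot2, and groups did not overlap within any genotype. PIP2-1 (AT3G53420), the most abundant PIP2, which carries water and hydrogen peroxide and acts in guard cells, rose 2.03-fold in the wild type, from 466, 461, and 505 CPM to 887, 974, and 1047 CPM. Its log2 fold change was 0.64 ± 0.07 in phot1, 0.67 ± 0.07 in phot2, and 1.00 ± 0.07 in phot1phot2, where it reached 1867, 1796, and 1666 CPM. None of these was called as different from that of the wild type (differences of −0.39, −0.35, and −0.02, adjusted p = 0.151, 0.0417, and 0.911). PIP2-6, expressed around veins, rose in all 4 genotypes by 0.44 to 0.74 on the log2 scale. PIP2-4, mainly a root isoform, reached at most 2.17 CPM and rose in the wild type, phot1, and phot1phot2 by 1.10 to 1.41 on the log2 scale. PIP2-5 and PIP2-8 passed the test in no genotype.

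PIP2-7 (AT4G35100), a plasma membrane water channel, went in opposite directions. It rose in the wild type from 462, 477, and 415 CPM to 639, 722, and 720 CPM (log2 0.62 ± 0.09 SE, adjusted p = 1.15e-05). In phot1phot2 it went from 706, 642, and 540 CPM to 495, 520, and 519 CPM (log2 −0.30 ± 0.09, adjusted p = 0.00996). This last value lay at the edge of the limit. It lost its call in 4 of 9 alternative analyses and in 17 of the 24 fits that left out 1 library (adjusted p up to 0.0804, without non-treated phot1phot2 replicate 1). In phot1 its log2 fold change was 0.03 ± 0.09 and in phot2 −0.22 ± 0.09, neither past the test.

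Of the PIP1 genes, PIP1-1, PIP1-2, and PIP1-3 rose in all 4 genotypes. PIP1-1 (AT3G61430), a plasma membrane channel that acts with PIP2 partners, went from 129, 135, and 145 CPM to 196, 240, and 218 CPM in the wild type (log2 0.68 ± 0.07 SE, adjusted p = 2.60e-08) and from 215, 224, and 219 CPM to 649, 653, and 578 CPM in phot1phot2 (log2 1.51 ± 0.07, adjusted p = 1.09e-13). The phot1phot2 plants therefore began above all non-treated wild-type libraries and also rose further. For PIP1-2 (AT2G45960), the most abundant PIP, log2 fold changes were 0.36, 0.34, 0.39, and 0.72 (wild type, phot1, phot2, and phot1phot2). For PIP1-3 they were 0.65, 0.29, 0.38, and 0.78. PIP1-4 lay between 248.6 and 299.5 CPM in all 24 libraries and passed the test in no genotype. PIP1-5 fell in phot1phot2 (log2 −0.53 ± 0.14, adjusted p = 0.00265), and its log2 fold change was −0.44 in phot2 with no call.

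**Figure D2:**
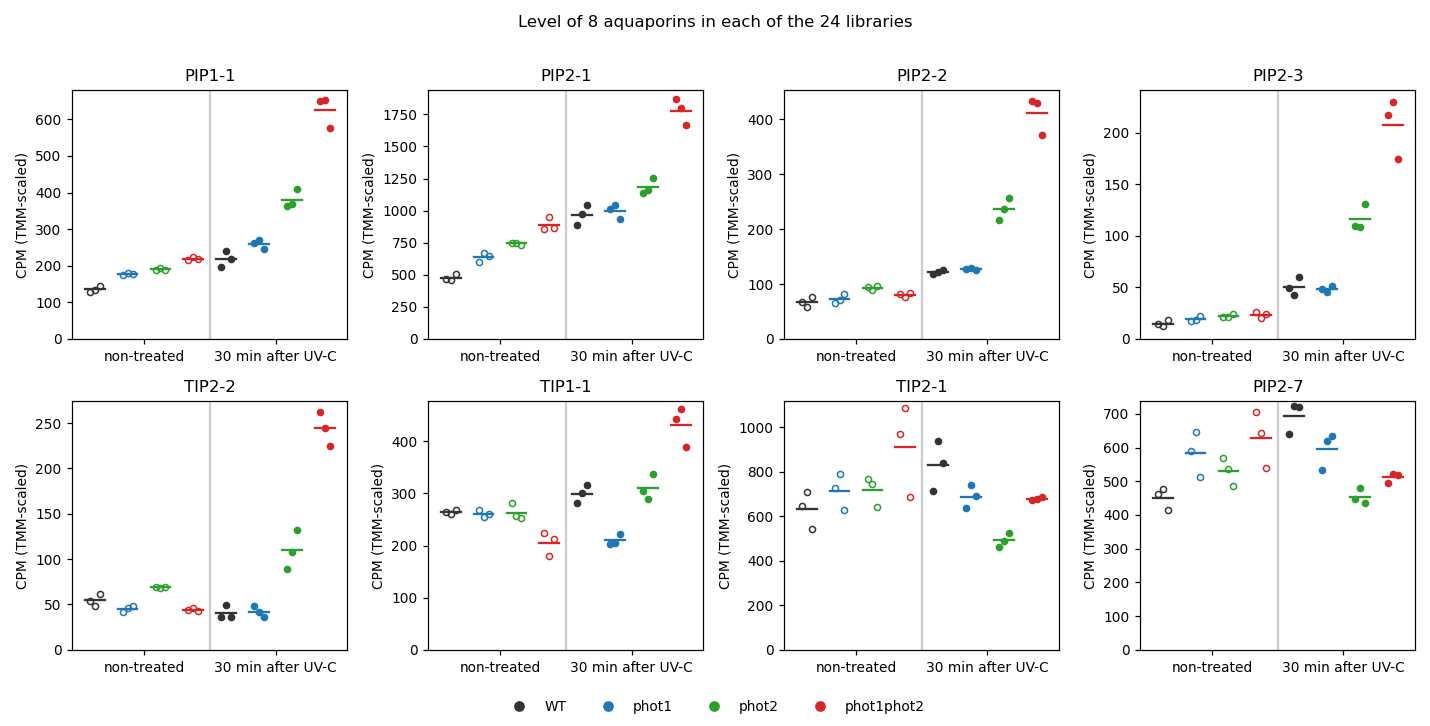
Level of 8 aquaporins in each library, in TMM-scaled CPM (y axis, from 0), for the 4 genotypes without treatment (open points) and 30 min after UV-C (filled points), with a line at the mean of 3 replicates. TIP2-2 after UV-C sits at 35.8 to 49.3 CPM in the wild type and at 225 to 263 CPM in phot1phot2, and the means of TIP2-1 and PIP2-7 are lower after UV-C than without treatment in phot2 and phot1phot2.

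Of the vacuolar TIPs, TIP2-2 (AT4G17340), a tonoplast water channel known mainly from roots, stood at 54.0, 48.2, and 61.8 CPM in non-treated wild type and at 35.8, 49.3, and 36.4 CPM after UV-C, overlapping groups with a log2 fold change of −0.43 ± 0.13 SE (adjusted p = 0.00859). In phot1 it stood at 41.9, 45.7, and 48.5 CPM and at 48.0, 41.2, and 36.2 CPM (log2 −0.12, not past the test). In phot2 it rose from 69.4, 68.2, and 68.7 CPM to 89.6, 108, and 132 CPM (log2 0.68 ± 0.13, adjusted p = 0.000115). In phot1phot2 it rose from 44.1, 46.2, and 43.0 CPM to 263, 245, and 225 CPM, 5.49-fold (log2 2.46 ± 0.13, adjusted p = 1.49e-12). The rises in phot2 and phot1phot2 thus separated all libraries, whereas the fall in the wild type was lost in 3 of 9 alternatives and in 12 of 24 fits without 1 library (adjusted p up to 0.0562, without wild-type UV-C replicate 1).

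TIP1-1 (AT2G36830), the gamma-TIP of the vacuole, which carries water, urea, and hydrogen peroxide, fell in phot1 from 269, 254, and 260 CPM to 203, 205, and 221 CPM (log2 −0.31 ± 0.08 SE, adjusted p = 0.00176). In phot1phot2 it rose from 224, 180, and 212 CPM to 444, 463, and 389 CPM (log2 1.07 ± 0.08, adjusted p = 1.32e-10). It passed the test in neither the wild type (0.18) nor phot2 (0.24). TIP2-1 (AT3G16240), which carries water and ammonia, fell in phot2 from 766, 746, and 641 CPM to 461, 490, and 523 CPM (log2 −0.55 ± 0.13, adjusted p = 0.00138). It also fell in phot1phot2, where 968, 1086, and 685 CPM became 675, 676, and 688 CPM with overlapping groups (log2 −0.43 ± 0.13, adjusted p = 0.00826). In the wild type its log2 fold change was 0.39 ± 0.13, with an adjusted p of 0.0165 and no call. The call in phot1phot2 was lost in 9 of 24 fits without 1 library (adjusted p up to 0.0809, without non-treated phot1phot2 replicate 2), and TIP2-1 shares 120 bases with AT3G16250 on the other strand, which fell in all 4 genotypes (log2 −0.57, −0.44, −0.58, and −0.35) and whose reads the counting does not separate by strand. TIP1-2 passed the test in no genotype, at 913 to 1482 CPM in all libraries.

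Of the NIPs, the boric acid channels NIP6-1 and NIP5-1 rose in every genotype. NIP6-1 (AT1G80760), which in shoots brings boron to young leaves, went from 11.7, 9.84, and 14.1 CPM to 34.1, 26.6, and 38.4 CPM in the wild type (log2 1.48 ± 0.14 SE, adjusted p = 2.04e-08). Its rise was 1.297 ± 0.141 in phot1, 1.53 ± 0.14 in phot2, and 1.54 ± 0.14 in phot1phot2, with no overlap between treated and non-treated libraries in any genotype. The gene whose end overlaps NIP6-1 by 26 bases, AT1G80750, had log2 fold changes of 0.11 to 0.23. NIP5-1 (AT4G10380), best known for boric acid uptake in roots, had log2 fold changes of 0.69, 0.76, 1.06, and 1.10 in the same order of genotypes. NIP1-2, linked to aluminium tolerance, rose in phot2 (log2 0.39 ± 0.10, adjusted p = 0.00242), a response that was not called as different from that of the wild type (difference 0.58, 95% interval 0.30 to 0.87, adjusted p = 0.0306). NIP3-1 had 8 to 14 reads in non-treated phot2 libraries and 14 to 19 after UV-C, a ratio of depth-corrected reads of 3.10 (95% exact interval 1.95 to 5.0, counting error only), and NIP1-1 had 15 to 21 reads in non-treated phot1phot2 libraries and 0 to 3 after UV-C, a ratio of 5.92 (2.39 to 18.98) in favour of the non-treated plants. Both were called, but NIP3-1 lost its call in 5 and NIP1-1 in 2 of the 24 fits without 1 library (adjusted p up to 0.0259 without non-treated phot2 replicate 1 and 0.0217 without phot1phot2 UV-C replicate 2). NIP1-1 reached 5 reads in 15 of the 24 libraries, mostly non-treated ones, so its inclusion favours a call of lower after UV-C. NIP2-1 and NIP7-1 passed the test in no genotype. The range of NIP2-1, with at most 9 reads in any library, overlaps AT2G34380 and AT2G08660 on the other strand. These had mean reads of up to 190.6, so the count of NIP2-1 is uncertain.

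SIP1-2 fell in phot1phot2 (log2 −0.63 ± 0.17 SE, adjusted p = 0.00413) at 1.82 to 3.68 CPM over all libraries. SIP1-1 and SIP2-1 passed the test in no genotype. The range of SIP1-2 overlaps AT5G18300 and that of SIP2-1 overlaps AT3G56940, a far more abundant gene, so both counts are uncertain. Calls after UV-C that a fit without 1 library ended, beyond those already named, were PIP2-6 (4 of 24 fits, adjusted p up to 0.0218 without non-treated replicate 3) and NIP5-1 (3 fits, up to 0.0429 without UV-C replicate 3) in the wild type. In phot1 they were PIP1-3 and PIP2-6 (5 fits each, up to 0.0439 and 0.0340, both without non-treated replicate 3), PIP2-4 and TIP1-1 (2 and 1 fits, up to 0.0131 and 0.0106, both without UV-C replicate 1), and NIP5-1 (1 fit, 0.0104 without non-treated replicate 1). In phot2 the call of NIP1-2 was lost in 2 fits (up to 0.0315 without UV-C replicate 2), and in phot1phot2 those of PIP1-5 in 2 (up to 0.0444 without non-treated replicate 2) and SIP1-2 in 3 (up to 0.0269 without UV-C replicate 3). Under total counts PIP1-3 in phot1 had an adjusted p of 0.105.

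**Figure D3:**
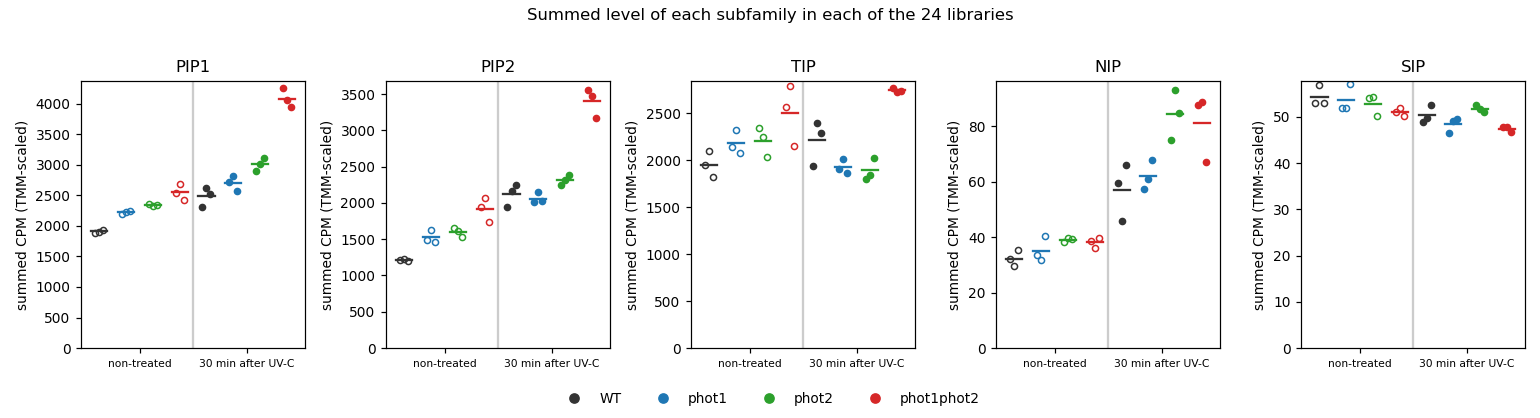
Summed level of the PIP1, PIP2, TIP, NIP, and SIP genes in each library, in TMM-scaled CPM (y axes, from 0, scaled per panel), for the 4 genotypes without treatment (open points) and 30 min after UV-C (filled points), with a line at the mean of 3 replicates. PIP2 genes sum to 1201 to 1230 CPM in non-treated wild type and to 3166 to 3561 CPM in phot1phot2 after UV-C, while SIP genes stay between 46.6 and 57.2 CPM.

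The summed level of each subfamily follows its abundant members. PIP2 genes summed to 1213 ± 15.4 CPM in non-treated wild type and 2118 ± 155 CPM after UV-C, and to 1920 ± 163 and 3399 ± 207 CPM in phot1phot2 (SD, n = 3). PIP1 genes went from 1910 ± 21.3 to 2487 ± 162 CPM in the wild type and from 2550 ± 132 to 4088 ± 157 CPM in phot1phot2. TIP genes stayed within a narrower range, from 1954 ± 139 to 2212 ± 237 CPM in the wild type and from 2507 ± 324 to 2744 ± 19.4 CPM in phot1phot2, and all libraries lay lower after UV-C than before in phot1 (1870 to 2016 against 2074 to 2325 CPM) and phot2 (1804 to 2025 against 2040 to 2340 CPM). In phot1phot2 after UV-C all aquaporins took 10360 ± 382 CPM, with single libraries at 9960 to 10720 CPM, against 6308 to 7279 CPM in the wild type.

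To ask what loss of the phototropins changes without UV-C, each mutant was compared with the non-treated wild type. These 3 comparisons share the wild-type libraries. In phot1, 2 of the 28 aquaporins were higher and 0 lower, against 0.383% and 0.0846% of all genes. In phot2, 5 were higher and 0 lower (1.5% and 0.597% of all genes). In phot1phot2, 9 were higher and 1 lower (3.72% and 2.63%). For the count of 0 lower, the numbers of aquaporins with an unadjusted p under 0.05 in either direction were 8 in phot1 and 11 in phot2, and DESeq2 and the likelihood ratio test also called 0 lower.

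PIP2-1 and PIP1-1 were higher in all 3 mutants. PIP2-1 stood at 466, 461, and 505 CPM in the wild type, 602, 673, and 650 CPM in phot1, 751, 750, and 732 CPM in phot2, and 854, 952, and 862 CPM in phot1phot2. No group overlapped another in this order. The log2 fold changes against the wild type were 0.43 ± 0.07 SE in phot1 (adjusted p = 0.000919), 0.64 ± 0.07 in phot2 (3.75e-06), and 0.90 ± 0.07 in phot1phot2 (1.10e-08). PIP1-1 took the same order, at 129 to 145 CPM in the wild type, 174 to 181 CPM in phot1, 190 to 194 CPM in phot2, and 215 to 224 CPM in phot1phot2 (log2 0.38, 0.49, and 0.69). PIP1-2 was higher in phot2 (0.37 ± 0.06) and phot1phot2 (0.45 ± 0.06), and PIP2-2 in phot2 (0.47 ± 0.08). In phot1phot2, PIP1-3, PIP2-3, PIP2-6, PIP2-7, TIP1-2, and TIP2-1 (with overlapping libraries) were also higher, by 0.36 to 0.65 on the log2 scale, and TIP1-1 was lower (−0.37 ± 0.08, adjusted p = 0.00244). TIP2-3, a root TIP, had 3, 2, and 3 reads in the wild type and 22, 29, and 22 in phot2, a ratio of 8.76 (95% exact interval 4.22 to 21.1, counting error only), and 8, 4, and 6 reads in phot1phot2. It reached 5 reads in 11 of the 24 libraries and in no wild-type library. It thus passed the filter only through the mutants, so its inclusion favours a call of higher.

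**Figure D4:**
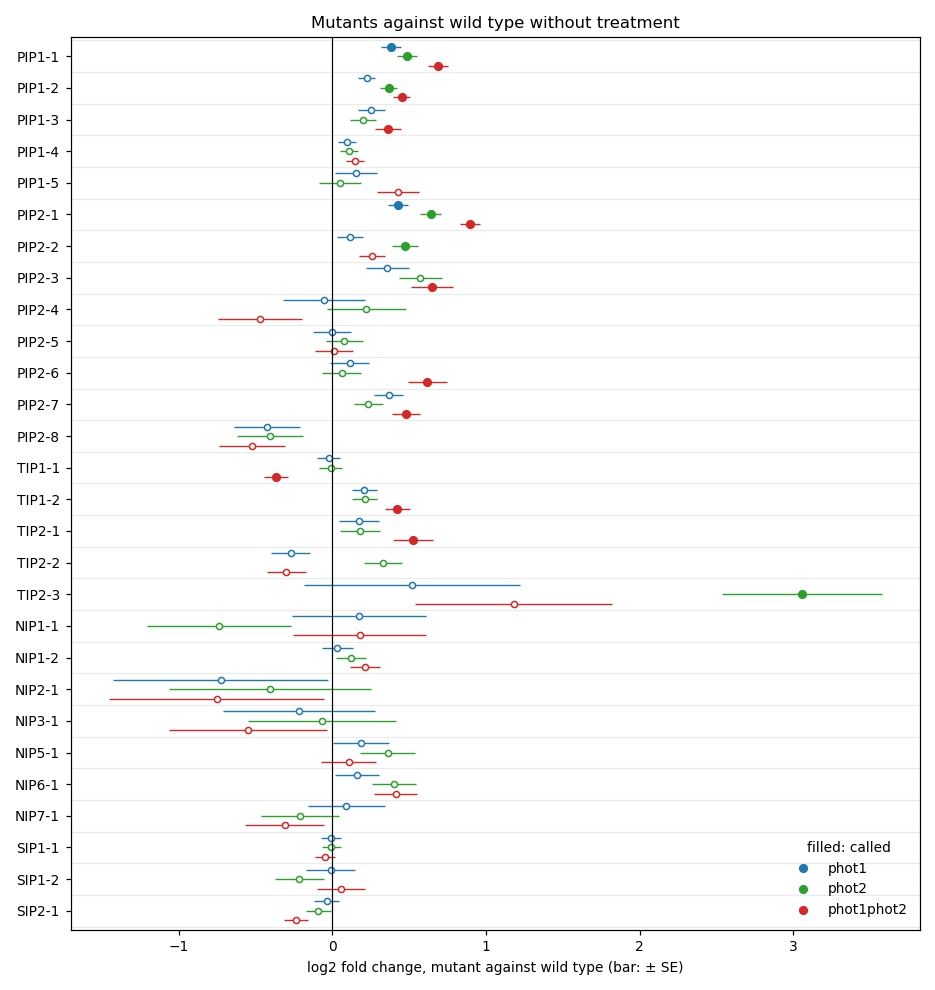
Log2 fold change (x axis) of each of the 28 tested aquaporins (y axis) in non-treated phot1, phot2, and phot1phot2 against the non-treated wild type, from edgeR; bars are ± SE and filled points passed the test. PIP2-1 lies at 0.43, 0.64, and 0.90 in the 3 mutants, and TIP1-1 at −0.37 in phot1phot2 is the only call below 0.

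With only the 2 groups compared in each fit, 0 of the 28 aquaporins passed in phot1, 3 in phot2, and 3 in phot1phot2. Fits without 1 library ended the calls of PIP1-1 (4 of 24, adjusted p up to 0.0237 without wild-type replicate 1) and PIP2-1 (2, up to 0.0105 without wild-type replicate 2) in phot1, and PIP2-2 (2, up to 0.0138 without wild-type replicate 2) in phot2. In phot1phot2 they ended those of TIP2-1 (17, up to 0.0816), PIP1-3 (5, up to 0.0635), PIP2-6 (3, up to 0.0258), TIP1-1 (2, up to 0.0246), and TIP1-2 (1, 0.0126), all highest without phot1phot2 replicate 2, and those of PIP2-3 (3, up to 0.0256 without wild-type replicate 2) and PIP2-7 (2, up to 0.0128 without wild-type replicate 3). Without phot1phot2 replicate 2, or without wild-type replicate 3, 5 aquaporins were called in phot1phot2 in place of 10, and without wild-type or phot1phot2 replicate 1, 6 were. In phot1, 0 were called without wild-type replicate 2 or phot1 replicate 2, and 1 without wild-type replicate 1 or phot1 replicate 3.

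After UV-C, each mutant was again compared with the wild type. In phot1, 0 of the 28 aquaporins were higher and 1 lower (0.169% and 0.159% of all genes), namely TIP1-1 (log2 −0.51 ± 0.08 SE, adjusted p = 0.000988). Unadjusted p-values were under 0.05 for 5 aquaporins in phot1, and DESeq2 also called 0 higher. In phot2, 8 were higher and 2 lower (4.68% and 3.6%). In phot1phot2, 13 were higher and 1 lower (13.4% and 10.7%). PIP1-1, PIP1-2, PIP2-1, PIP2-2, PIP2-3, TIP2-2, and NIP1-2 were higher in both phot2 and phot1phot2, which share the wild-type libraries. TIP2-2 stood at 35.8 to 49.3 CPM in the wild type against 89.6 to 132 CPM in phot2 (log2 1.44 ± 0.13) and 225 to 263 CPM in phot1phot2 (2.59 ± 0.13, adjusted p = 8.19e-12). PIP2-3 was higher by 1.20 ± 0.13 in phot2 and 2.03 ± 0.13 in phot1phot2, PIP2-2 by 0.96 ± 0.08 and 1.75 ± 0.09, and PIP1-1 by 0.80 ± 0.07 and 1.52 ± 0.07. PIP2-7 was lower in phot2 (−0.61 ± 0.09) and phot1phot2 (−0.44 ± 0.09), and TIP2-1 in phot2 (−0.76 ± 0.13). NIP1-2, at 8.16 to 9.08 CPM in the wild type, stood at 12.9 to 16.3 CPM in phot2 and 12.5 to 15.1 CPM in phot1phot2. TIP2-3 had 2, 1, and 1 reads in the wild type and 15, 9, and 5 in phot1phot2, a ratio of 6.93 (95% exact interval 2.43 to 27.1, counting error only). Because TIP2-3 passed the filter only through mutant libraries, its inclusion favours such a call. Fits without 1 library ended the calls of TIP1-1 in phot1 (2 of 24, adjusted p up to 0.0122 without phot1 UV-C replicate 2), PIP2-1 (3, up to 0.0320 without wild-type replicate 1) and NIP5-1 (7, up to 0.0568 without wild-type replicate 2) in phot2, and TIP2-3 (4, up to 0.0305 without phot1phot2 replicate 1) and NIP6-1 (8, up to 0.0620 without wild-type replicate 2) in phot1phot2. In phot1 the single call was also lost without UV-C replicate 1.

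Comparisons between mutants after UV-C were added once values had been seen. Against phot1, 5 aquaporins were higher in phot2 and 0 lower (1.79% and 2.19% of all genes), namely PIP1-1 (log2 0.56 ± 0.07 SE), PIP2-2 (0.89 ± 0.08), PIP2-3 (1.26 ± 0.13), TIP1-1 (0.56 ± 0.08), and TIP2-2 (1.40 ± 0.13), all with separate libraries. For the 0 lower, 14 aquaporins had an unadjusted p under 0.05 in either direction, and DESeq2 called 2 lower. Against phot2, 10 were higher in phot1phot2 and 2 lower (7.88% and 4.26%). The 10 comprised PIP1-1, PIP1-2, PIP1-3, PIP2-1, PIP2-2, PIP2-3, PIP2-6, TIP1-1, TIP1-2, and TIP2-2, by 0.41 to 1.15 on the log2 scale. For phot1 against the wild type after UV-C the same scale gave 0.04 for TIP2-2 (95% interval −0.22 to 0.31), 0.07 for PIP2-2 (−0.10 to 0.23), and −0.06 for PIP2-3 (−0.32 to 0.21). The 2 lower calls, NIP3-1 and SIP2-1, were lost in 16 and 4 of 24 fits without 1 library (adjusted p up to 0.0425 without phot1phot2 UV-C replicate 2 and 0.0318 without phot2 UV-C replicate 1).

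Whether the UV-C effect itself differed between genotypes was tested as the difference between the log2 fold change in a mutant and that in the wild type. In phot1, 0 of the 28 aquaporins were higher and 0 lower (0.00498% and 0.00995% of all genes). Unadjusted p-values were under 0.05 for 8 aquaporins in phot1, and DESeq2 and the likelihood ratio test each called 2, both lower. In phot2, 1 was higher and 2 lower (0.562% and 0.513% of all genes). In phot1phot2, 6 were higher and 2 lower (2.56% and 2.05%). The 3 differences share the wild-type libraries.

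**Figure D5:**
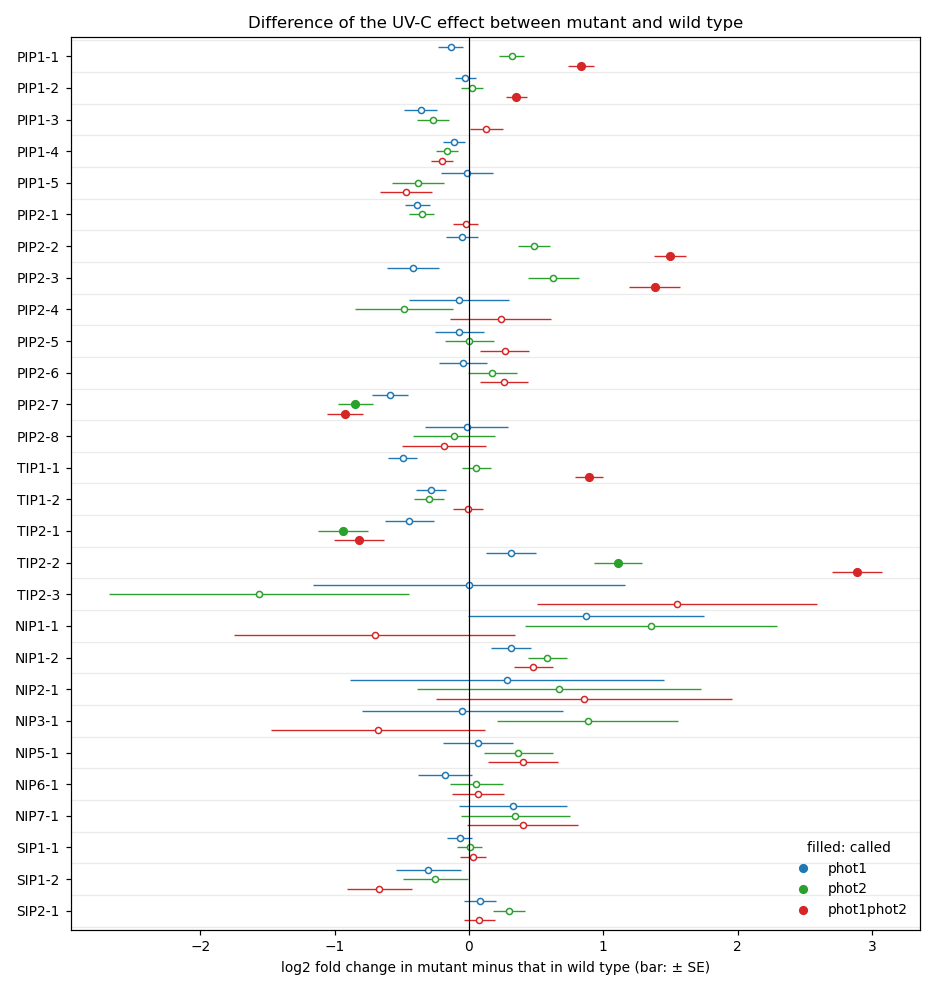
Difference between the log2 fold change after UV-C in each mutant and that in the wild type (x axis) for each of the 28 tested aquaporins (y axis), from edgeR; bars are ± SE and filled points passed the test. TIP2-2 lies at 1.11 in phot2 and 2.89 in phot1phot2, and PIP2-7 at −0.84 and −0.92.

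Among called aquaporins TIP2-2 had the largest difference in both, 1.11 ± 0.18 SE in phot2 (adjusted p = 0.00150) and 2.89 ± 0.18 in phot1phot2 (adjusted p = 4.49e-09). In phot1 it was 0.31 (95% interval −0.05 to 0.67, adjusted p = 0.798). In phot1phot2 the response of PIP2-2 was larger by 1.49 ± 0.12 (adjusted p = 6.55e-08), that of PIP2-3 by 1.38 ± 0.19 (5.39e-05), that of TIP1-1 by 0.89 ± 0.11 (1.02e-05), that of PIP1-1 by 0.83 ± 0.09 (4.34e-06), and that of PIP1-2 by 0.35 ± 0.08 (0.00586). In phot2 the same genes gave 0.48 for PIP2-2 (adjusted p = 0.0267), 0.63 for PIP2-3 (0.0880), 0.06 for TIP1-1, 0.32 for PIP1-1, and 0.02 for PIP1-2, none past the test. The responses of PIP2-7 and TIP2-1 differed in the other direction, by −0.84 ± 0.13 and −0.94 ± 0.18 in phot2 and by −0.92 ± 0.13 and −0.82 ± 0.18 in phot1phot2. In phot1 they were −0.59 (95% interval −0.85 to −0.33) and −0.44 (−0.80 to −0.08), with adjusted p of 0.110 and 0.565. NIP6-1, the NIP with the largest rise in the wild type, gave −0.18 (−0.57 to 0.21), 0.05 (−0.33 to 0.44), and 0.07 (−0.32 to 0.45) in phot1, phot2, and phot1phot2. Fits without 1 library ended the calls of TIP2-1 in phot2 (8 of 24, adjusted p up to 0.0210 without wild-type UV-C replicate 2) and phot1phot2 (9, up to 0.0195 without non-treated phot1phot2 replicate 2), and of PIP1-2 in phot1phot2 (7, up to 0.0205 without phot1phot2 UV-C replicate 1). With total counts alone, without TMM, PIP1-2 was not called (adjusted p = 0.0512).

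With total counts alone the median log2 fold change of all genes after UV-C was −0.119, −0.135, −0.112, and −0.235 (wild type, phot1, phot2, and phot1phot2). No called aquaporin changed direction under any scaling. Of all genes called in these comparisons, 48.3%, 48.5%, 49.3%, and 49.7% were higher under TMM and 30.1%, 27.8%, 31.7%, and 21.1% under total counts. Against the wild type after UV-C, the share higher in phot1phot2 was 55.6% under TMM, 41.4% under upper quartile factors, and 17.6% under total counts, and in phot1 51.5% under TMM and 18.3% under total counts. Without treatment it was 58.6%, 42.9%, and 35.2% in phot1phot2 and 81.9% under TMM and 71.2% under total counts in phot1. For phot1phot2 against phot2 after UV-C it was 64.9%, 47.6%, and 10.8%, for phot2 against phot1 44.9% under TMM and 74.3% under total counts, and for the UV-C response in phot1phot2 against the wild type 55.5% and 26.3%. Under total counts, the aquaporins called after UV-C were 9 higher and 2 lower in the wild type, 8 and 3 in phot1, 11 and 6 in phot2, and 12 and 7 in phot1phot2. Against the non-treated wild type they were 1 and 0 in phot1, 5 and 0 in phot2, and 7 and 1 in phot1phot2, and against the wild type after UV-C 0 and 1, 7 and 2, and 12 and 6. For the differences of responses they were 0 and 0, 1 and 2, and 5 and 2, for phot2 against phot1 7 and 0, and for phot1phot2 against phot2 10 and 2.

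Genes known to act beside aquaporins were compared in the same fits, in which 17.1% to 21.4% of all genes rose and 18.1% to 21.6% fell after UV-C. Of 12 genes of aquaporin trafficking and regulation, 2 rose and 3 fell after UV-C in the wild type, 1 and 5 in phot1, 2 and 4 in phot2, and 3 and 3 in phot1phot2, with medians of −0.15, −0.15, −0.11, and 0.05 on the log2 scale. SYP121, a syntaxin that delivers PIPs to the plasma membrane, rose in all 4 genotypes, from a mean of 23.2 to 92.6 CPM in the wild type (log2 1.99 ± 0.12 SE) and from 25.01 to 83.5 CPM in phot1phot2 (1.74 ± 0.12). The carbonic anhydrase BCA1 fell by 0.67 and 0.50 in these genotypes. Of 11 tested plasma membrane and vacuolar proton pumps, 1 rose and 5 fell in every genotype. AHA3, the phloem companion cell proton ATPase, rose by 0.67 ± 0.11 in the wild type and 1.53 ± 0.12 in phot1phot2, whereas the vacuolar pyrophosphatase AVP1, which shares the tonoplast with the TIPs, fell by 0.61 and 0.53. Of the 3 boron exporters, none passed the test after UV-C in the wild type, phot1, or phot2, where the boric acid channels NIP5-1 and NIP6-1 rose, and BOR1 fell in phot1phot2. In the difference of UV-C responses between phot1phot2 and the wild type, where 2.56% of all genes were higher and 2.05% lower, 0 of the 12 trafficking genes, 1 of 11 pumps (AHA3, higher), and 1 of 3 boron exporters (BOR1, lower) passed the test.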

How the data were processed

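Total RNA from rosettes was sequenced as stranded poly-A libraries, 76 cycles from each end. According to the methods and the file header, the authors aligned reads with STAR (2.5.2b) and counted them per gene with featureCounts (Subread 1.6.2) on the Araport11 annotation, and the deposited values are raw read counts without normalization. The recorded command sets no strand and no multi-mapping reads. Of 37813 genes, 21366 had at least 5 reads in at least 6 of 24 libraries, 20094 of them protein-coding (142 passing genes had no type and were left out). One edgeR (4.0.16, R 4.3.3) model of 8 groups with TMM factors was fitted, tested by quasi-likelihood F-tests, and adjusted by Benjamini-Hochberg over 20094 genes, with calls at an adjusted p under 0.01. Intervals of log2 values are ± 1.96 SE. CPM are counts per 1000000 of the TMM-scaled library size over tested genes. The test was checked on simulated counts for the UV-C effect in the wild type over 20094 genes. There, 87 of 111 genes changed by 1 and 81 of 89 changed by 2 on the log2 scale were recovered, with 0 false calls. The simulation drew counts from the fitted dispersions and changed only these genes, whereas 18% of genes rose and 19.2% fell in the data. It therefore cannot give the error rate under so wide a change. Depth was 20897905 to 41902444 reads per library, and intervals from reads cover counting error only. Alternatives were a likelihood ratio test with robust dispersions, DESeq2 (1.42.0), RLE factors, upper quartile factors, total count only, no count filter, all gene types, the compared groups alone, a replicate block, and each library left out in turn. Named genes are all family members, by role. The members and lists were chosen with earlier results of these data known. Sequences are from RefSeq TAIR10.1, in which 37469 of 37517 matched genes have the positions of the count table.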

Additional observations from a re-analysis of the deposited data

Results flagged for a closer look

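The responses to UV-C that differed between a mutant and the wild type by the interaction test (edgeR, adjusted p under 0.01) are given here as differences of log2 fold changes. In phot2, TIP2-2 had 1.11, PIP2-7 had −0.84, and TIP2-1 had −0.94. In phot1phot2, TIP2-2 had 2.89, PIP2-2 had 1.49, PIP2-3 had 1.38, TIP1-1 had 0.89, PIP1-1 had 0.83, and PIP1-2 had 0.35, while PIP2-7 had −0.92 and TIP2-1 had −0.82. TIP2-2, PIP2-7, and TIP2-1 were called in both mutants, whose differences share the wild-type libraries.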

How the results depend on the processing

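Of 123 calls of single aquaporins over 15 comparisons, 93 were also made in each of 9 alternatives and 87 of these in every fit without 1 library, and none changed direction. Of 135 counts of called aquaporins under these alternatives, 124 were within 1.5 times the reported count. In non-treated phot1 (2 called), total count only gave 1, the compared groups alone 0, and DESeq2 4. With the compared groups alone, non-treated phot2 had 3 in place of 5 and non-treated phot1phot2 had 3 in place of 10. UV-C in phot1phot2 then had 13 in place of 17, within 1.5 times, but with 1 lower in place of 5. For the difference of UV-C responses, the likelihood ratio test and DESeq2 each gave 2 in phot1 (0 reported), and 6 and 5 in phot2 (3 reported). For phot2 against phot1 after UV-C they gave 10 and 9 (5 reported). The cause of these shifts was not tested. Leaving out each library in turn gave 9 to 14 called aquaporins for UV-C in the wild type, 8 to 11 in phot1, 12 to 16 in phot2, and 13 to 18 in phot1phot2. It gave 0 to 2, 4 to 6, and 5 to 11 in non-treated phot1, phot2, and phot1phot2, and 0 to 1, 8 to 10, and 12 to 15 after UV-C. For the differences of responses it gave 0 to 0, 2 to 4, and 6 to 8, for phot2 against phot1 5 to 7, and for phot1phot2 against phot2 10 to 12.

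Replicate numbers of the sample titles were not taken as pairs, since no comparison had all same-numbered correlations over 0.1 (range −0.132 to 0.275). Each sample still correlated best with its own number for UV-C in phot1 and for non-treated phot1 and phot1phot2. For non-treated phot1 against the wild type, same-numbered correlations were 0.077 to 0.24, and others were at most 0.058. For non-treated phot1phot2 they were 0.084 to 0.275, and others were at most 0.031. The source of this likeness was not tested. For many samples the column header of the counts carries another number than the title. Pairing by header numbers was not examined, so this check and the replicate block cannot decide whether samples were paired. With the replicate block, called aquaporins numbered 12, 11, 14, and 17 for UV-C in the wild type, phot1, phot2, and phot1phot2, 2, 6, and 10 in the non-treated mutants, 1, 10, and 14 in the mutants after UV-C, 0, 3, and 8 for the differences of responses, and 7 and 13 for the comparisons between mutants. Depth limits the members with few reads, TIP2-3, NIP1-1, NIP2-1, and NIP3-1, where intervals were wide.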
